A study of Mus musculus with 4 samples.

Results

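The genes described here encode the receptor chains and the downstream kinases, transcription factor and inhibitor of gp130 signalling: Il6st, Lifr, Osmr, Jak1, Jak2, Stat3 and Socs3. They were chosen by name, and all 7 were found among the 12208 genes listed. RNA was sequenced from mouse 3T3 cells, labelled as a pre-osteoblast line with no word on which of the 3T3 lines it is. The groups were cells given recombinant LTα1β2 for 24 h, control cells (NC in the sample titles) at 24 h, cells given recombinant LTα1β2 for 48 h and control cells at 48 h. Each of the 4 groups was 1 library, and neither the dose nor what control cells received is given by the labels. LTα1β2 is a cytokine of the TNF superfamily, and its receptor, LTBR, signals in stromal cells through NF-κB. The comparison asks whether its presence went with other levels of gp130 pathway transcripts in a cell of the osteoblast lineage.

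Cytokines of the interleukin-6 family act through gp130, the shared signal-transducing chain. Binding brings gp130 together with a second chain such as LIFR or OSMR, the kinases JAK1 and JAK2 bound to these chains become active, and STAT3 is phosphorylated and moves to the nucleus. STAT3 switches on Socs3, whose product binds gp130 and JAKs and shuts the signal down. In osteoblast-lineage cells this pathway is known for the responses to LIF and oncostatin M and for the control of factors that regulate osteoclasts.

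Depth, as reads recovered from the deposited values, was between 11355974 and 15995777 reads per library. Ltbr, the lymphotoxin receptor gene, was read in every library, between 130 and 156 CPM (counts per 1000000 reads on listed genes). Of 5 genes of the lymphotoxin pathway 4 rose in LTα1β2 cells, the NF-κB pathway genes Nfkb2, Relb, Map3k14 and Nfkbia (limma fit of treatment and time). In that fit 2.92% of all tested genes rose and 2.27% fell, shares that also stand beside the marker counts below. The count of 4 was 2 with 10 prior degrees of freedom or without a time term and 3 with median-of-ratios scaling. Most of these calls were also lost without either control library. Of 10 osteoblast lineage markers 8 were listed, Sp7 and Runx2 among them, with Bglap at no more than 1.33 CPM, and 4 of the 8 (Runx2, Sp7, Col1a1 and Dmp1) fell. That count was 1 without either control library or without a time term, and 2 with 10 prior degrees of freedom or median-of-ratios scaling. Of 8 mesenchymal and fibroblast markers 7 were tested, of which S100a4 rose and Pdgfrb and Fn1 fell, calls lost under each of those settings. Their summed level was 9505 CPM in LTα1β2 cells and 11742 CPM in control cells at 24 h, and 7751 CPM in LTα1β2 cells and 11359 CPM in control cells at 48 h. Of 10 leukocyte markers 3 were listed, with a summed level of 57.4 and 85.9 CPM in LTα1β2 cells at 24 h and 48 h and 65.1 and 75.4 CPM in control cells, nearly all of it Lyz2. Of 6 endothelial markers 1 was listed and of 6 epithelial markers 0. The part of other cells in the results was not tested, and in bulk RNA fewer cells of a type and less RNA per cell cannot be told apart. The LTα1β2 library at 48 h stood apart. Weighted by reads, its median transcript was 2847 bases long and that of the control library at 48 h 3339 bases, while at 24 h the LTα1β2 library had 3320 bases and the control library 3403 bases. Across 12157 genes, which are not independent replicates, the difference between LTα1β2 and control cells fell off with transcript length at 48 h (Spearman's rho = -0.47) and hardly at all at 24 h (rho = -0.03). The longest coding transcripts of the 7 genes run from 2552 bases (Socs3) to 9655 bases (Lifr). The median over all tested genes is 3083 bases, and of the 7 only Socs3 lies below it. Values at 48 h are therefore also given beside genes of like length or with the length trend removed.

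Osmr rose in LTα1β2 cells and was the only one of the 7 genes to pass the test. Lifr, Jak2 and Socs3 stood above control at both times without passing it, Il6st above control at 24 h and below it at 48 h, and Jak1 and Stat3 between 0.906 and 1.09 times control. Intervals in brackets are exact 95% intervals of a ratio of CPM between 2 libraries. They cover counting error only, so a difference between cultures could lie outside them, and a ratio at 1 time has no replicate. The only test was an additive limma fit of treatment and time over all 12160 genes with a mean of at least 1 CPM, in which 24 h and 48 h serve as repeats of the treatment. It called 631 genes (5.19%) at an adjusted p of 0.05, 355 higher and 276 lower. Of the 7 genes 1, Osmr, passed it in the higher direction, where 2.92% of all tested genes did, and 0 passed in the lower direction, where 2.27% did.

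**Figure D1:**
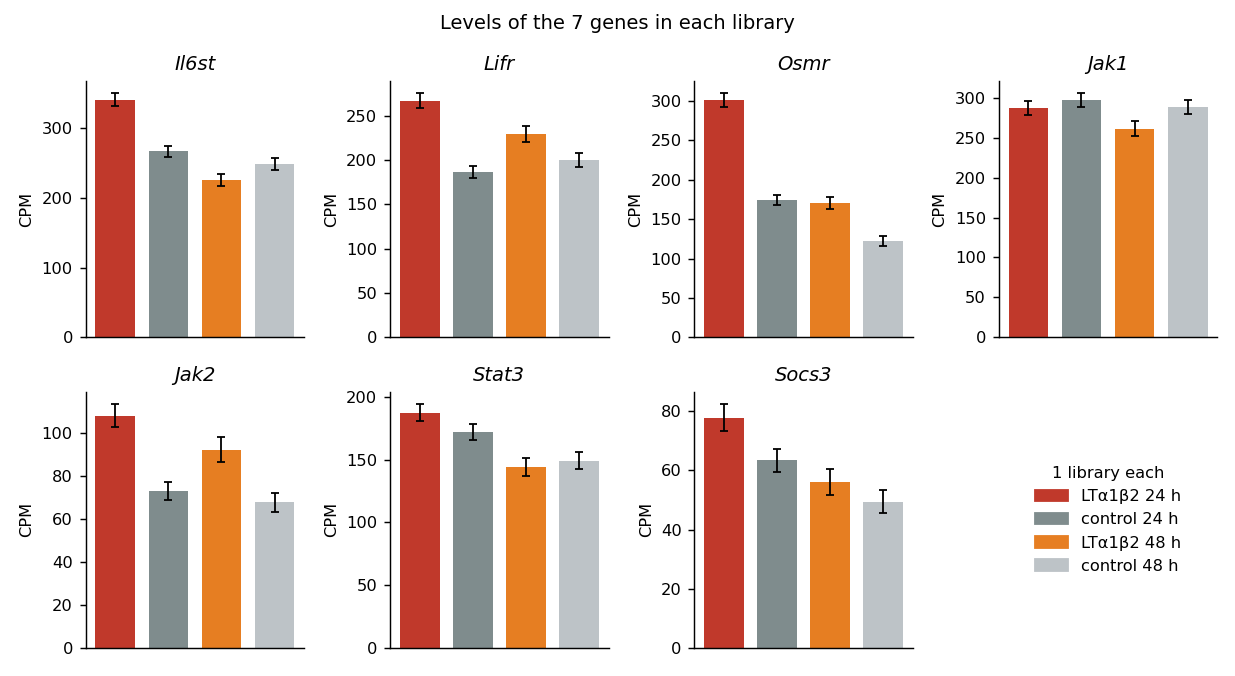
Level of each of the 7 genes in CPM (vertical axis, from 0) in the 4 libraries, LTα1β2 and control at 24 h and then at 48 h. Error bars are exact 95% Poisson intervals of the reads, which cover counting error only. Osmr stood at 301 CPM in LTα1β2 cells at 24 h, above its other libraries, while Jak1 stayed between 261 and 297 CPM.

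Osmr encodes the oncostatin M receptor chain, which pairs with gp130. It stood at 301 CPM in LTα1β2 cells and 174 CPM in control cells at 24 h, and at 170 CPM in LTα1β2 cells and 122 CPM in control cells at 48 h. Both LTα1β2 libraries were above the control library of the same time, but the LTα1β2 library at 48 h lay just below the control library at 24 h. The ratio was 1.73 at 24 h (1.65 to 1.81) and 1.40 at 48 h (1.31 to 1.49). Osmr rose across both times by a log2 difference of 0.63 ± 0.17 (SE; limma adjusted p = 0.00775), and its difference ranked 242 from the highest of 12160 genes. The fit gave each gene the spread typical of its level, since the prior degrees of freedom were estimated as infinite. With 10 prior degrees of freedom the adjusted p of Osmr was 0.163 and without a time term 0.533 (limma). With 1 library left out, and so without a time term, its log2 difference was 0.22 without the LTα1β2 library at 24 h, 1.04 without that at 48 h, 0.89 without the control library at 24 h and 0.38 without that at 48 h. The call was lost without either control library, at adjusted p-values of 0.714 and 1.00 (limma).

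Lifr encodes the LIF receptor chain, the partner of gp130 for LIF and, with it, for several related cytokines. It stood at 267 CPM in LTα1β2 cells and 186 CPM in control cells at 24 h, and at 229 CPM in LTα1β2 cells and 200 CPM in control cells at 48 h. Both LTα1β2 libraries were above both control libraries. The ratio was 1.43 at 24 h (1.36 to 1.501) and 1.15 at 48 h (1.09 to 1.21). Lifr did not pass the test (log2 difference 0.36 ± 0.17 SE, limma adjusted p = 0.266). It did where each library's length trend was removed, with 0.53 and an adjusted p of 0.00638 (limma). With 1 library left out, and so without a time term, its log2 difference was 0.24 to 0.47. Without either control library its adjusted p was 1.00. The fits without the LTα1β2 library at 24 h and at 48 h called 4949 and 772 genes in all, and those without the control library at 24 h and at 48 h 31 and 22. The genes of like length, 254 within 10% of the 9655 bases of its longest transcript, had a median log2 difference of -0.34 at 48 h, against 0.20 for Lifr. Its median coding transcript has only 3392 bases. With the length trend removed by the median transcript, Lifr was at 0.42 in the fit (limma adjusted p = 0.0198). Its log2 difference at 48 h was then 0.33, against 0.54 by the longest.

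Il6st encodes gp130 itself. It stood at 340 CPM in LTα1β2 cells and 267 CPM in control cells at 24 h, and at 225 CPM in LTα1β2 cells and 248 CPM in control cells at 48 h. The LTα1β2 library was the highest of the 4 at 24 h and the lowest of the 4 at 48 h. The ratio was 1.28 at 24 h (1.23 to 1.33) and 0.906 at 48 h (0.860 to 0.954). Il6st did not pass the test (log2 difference 0.10 ± 0.17 SE, limma adjusted p = 0.848). Without the LTα1β2 library at 48 h its log2 difference was 0.40. That fit has no time term and sets LTα1β2 cells at 24 h against control cells of both times. Within 24 h Il6st had a log2 difference of 0.35. The side of control on which it lay at 48 h turned with the processing. Its log2 difference there was -0.14 as deposited and -0.05 with median-of-ratios scaling, but 0.18 with the length trend removed by the longest transcript and -0.07 with it removed by the median transcript, since its annotated coding transcripts have a longest length of 8678 bases and a median of 2778 bases. Genes of like length, 381 within 10% of 8678 bases, had a median of -0.32 at 48 h.

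Osmr and Lifr are neighbours on mouse chromosome 15. By GENCODE M21 (GRCm38, which need not be the authors' build), Osmr spans 6813577 to 6874969 on the minus strand and Lifr 7090614 to 7197489 on the plus strand. Their annotated ends lie 215644 bases apart, with 1 annotated gene and 0 protein-coding genes between them. The other genes are spread over 4 chromosomes. Il6st lies on chromosome 13 (112464070 to 112510086, plus strand), Jak1 on chromosome 4 (101152367 to 101265282, minus strand) and Jak2 on chromosome 19 (29251828 to 29313080, plus strand). Stat3 (100885098 to 100939540) and Socs3 (117966079 to 117970047) are both on the minus strand of chromosome 11.

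**Figure D2:**
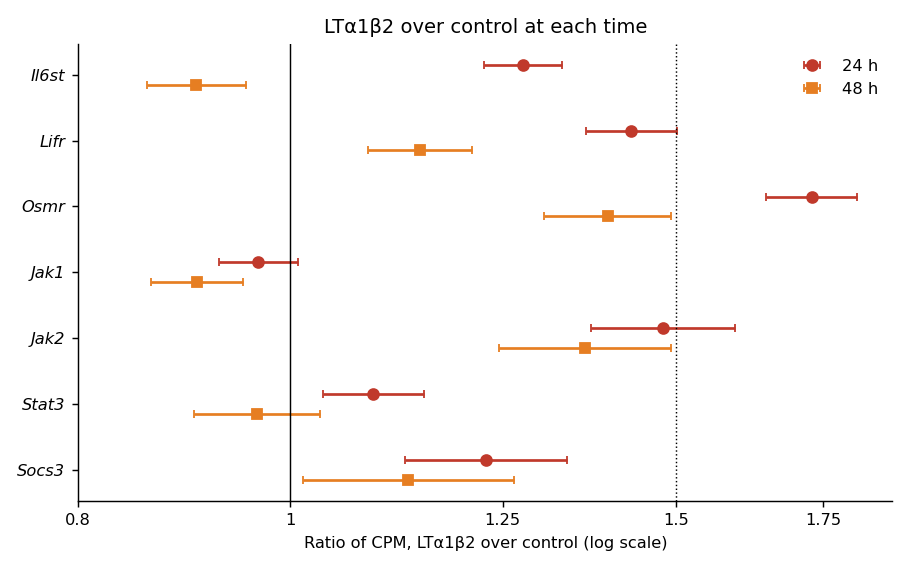
Ratio of CPM in LTα1β2 cells over control cells (horizontal axis, log scale) for each gene at 24 h (circles) and 48 h (squares), 1 library per group. Bars are exact 95% intervals for counting error only, the solid line marks 1 and the dotted line 1.5. Each ratio at 48 h lies left of that at 24 h. Il6st and Stat3 cross 1, Stat3 with an interval that holds 1 at 48 h.

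Of the kinases, Jak2 stood higher in LTα1β2 cells at both times and Jak1 did not. Jak2, a kinase that phosphorylates the receptor chains and STAT3, was at 108 CPM in LTα1β2 cells and 73.2 CPM in control cells at 24 h, and at 92.4 CPM in LTα1β2 cells and 67.8 CPM in control cells at 48 h. Both LTα1β2 libraries were above both control libraries. The ratio was 1.48 at 24 h (1.37 to 1.60) and 1.36 at 48 h (1.24 to 1.49). Jak2 missed the threshold by little, with a log2 difference of 0.50 ± 0.17 (SE; limma adjusted p = 0.0577). It passed with the length trend removed, at 0.60 and an adjusted p of 0.00524 (limma). With 10 prior degrees of freedom the adjusted p of Jak2 was 0.261 and without a time term 0.340 (limma). With 1 library left out, and so without a time term, its log2 difference was 0.39 to 0.61. Without either control library its adjusted p was 1.00 (limma). Jak1, the kinase regarded as the main one for gp130, was at 287 CPM in LTα1β2 cells and 297 CPM in control cells at 24 h, and at 261 CPM in LTα1β2 cells and 288 CPM in control cells at 48 h. Its ratio was 0.967 (0.928 to 1.01) at 24 h and 0.906 (0.863 to 0.951) at 48 h, and it did not pass (log2 difference -0.09 ± 0.17 SE, limma adjusted p = 0.864). The libraries spanned a log2 range of 0.18 for Jak1, the smallest of the 7 genes. At 48 h its log2 difference of -0.14 turned to 0.06 with the length trend removed.

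Stat3, the transcription factor of the pathway, was at 187 CPM in LTα1β2 cells and 172 CPM in control cells at 24 h, and at 144 CPM in LTα1β2 cells and 149 CPM in control cells at 48 h. Within each time the libraries lay close, and both libraries at 24 h were above both at 48 h. The ratio was 1.09 at 24 h (1.04 to 1.15) and 0.965 at 48 h (0.903 to 1.03), and it did not pass (log2 difference 0.04 ± 0.17 SE, limma adjusted p = 0.956). At 48 h its log2 difference of -0.05 turned to 0.04 with median-of-ratios scaling and to 0.20 with the length trend removed. These are transcript levels, and phosphorylated STAT3 was not measured.

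Socs3, the feedback inhibitor, had the lowest CPM of the 7 genes. It was at 77.8 CPM in LTα1β2 cells and 63.3 CPM in control cells at 24 h, and at 55.9 CPM in LTα1β2 cells and 49.4 CPM in control cells at 48 h. Each LTα1β2 library was above the control of its time, and both libraries at 24 h were above both at 48 h. The ratio was 1.23 at 24 h (1.13 to 1.34) and 1.13 at 48 h (1.01 to 1.27). Socs3 did not pass (log2 difference 0.23 ± 0.17 SE, limma adjusted p = 0.556). Without the LTα1β2 library at 48 h its log2 difference was 0.47. That fit has no time term and sets LTα1β2 cells at 24 h against control cells of both times. In control cells Socs3 had a log2 difference of -0.35 between 48 h and 24 h. Within 24 h Socs3 had a log2 difference of 0.29 between LTα1β2 and control cells. With 635 to 1166 reads per library it had the fewest reads of the 7 genes.

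Because Socs3 is the textbook STAT3 target of the set, the promoter windows of the 7 genes were searched for the STAT-type letters TTCNNNGAA, which read the same on both strands, in the 250 bases before each RefSeq start (GRCm38.p6). The 7 genes have 8 such windows, and 1 of them, that of Socs3, held a match, against 7.02% of 32851 windows of all genes. It lies at chr11:117969512-117969520 on the minus strand, beginning 154 bases before the RefSeq start and in none of the exons that GENCODE M21 gives for Socs3. By that annotation Socs3 spans 117966079 to 117970047, so the match lies inside the gene as annotated there, past its start. The match is shown in capitals with 20 bases on either side (chr11:117969492-117969540):
Socs3: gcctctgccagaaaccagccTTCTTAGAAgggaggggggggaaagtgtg
The NF-κB consensus, searched on both strands, was in 0 of the 8 windows and in 7.25% of all windows. A match is a run of letters and not a site shown to be bound, and no match says only that the letters are not in this window.

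At 24 h, 6 of the 7 genes were higher in LTα1β2 cells, as were 6678 of all 12160 tested genes. The median log2 difference of the 7 was 0.35, beside 0.02 over all genes. At 48 h, 4 of the 7 and 4948 of all tested genes were higher, with a median of 0.18 beside -0.09. The 4 genes higher at both times were Osmr, Lifr, Jak2 and Socs3, where 28.8% of all genes were higher at both. By the rule of size used for 1 library per group, at least 1.5-fold on log2(CPM + 1), Osmr alone passed at 24 h, where 1.48% of all genes were as much higher and 1.35% as much lower. At 48 h 0 of the 7 passed, where 7.39% of all genes were as much higher and 6.28% as much lower. With the length trend removed the medians of the 7 genes were 0.35 and 0.20, and Osmr and Jak2 passed 1.5-fold at 48 h, at log2 differences of 0.71 and 0.65, where 1198 of 12157 genes passed in either direction.

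**Figure D3:**
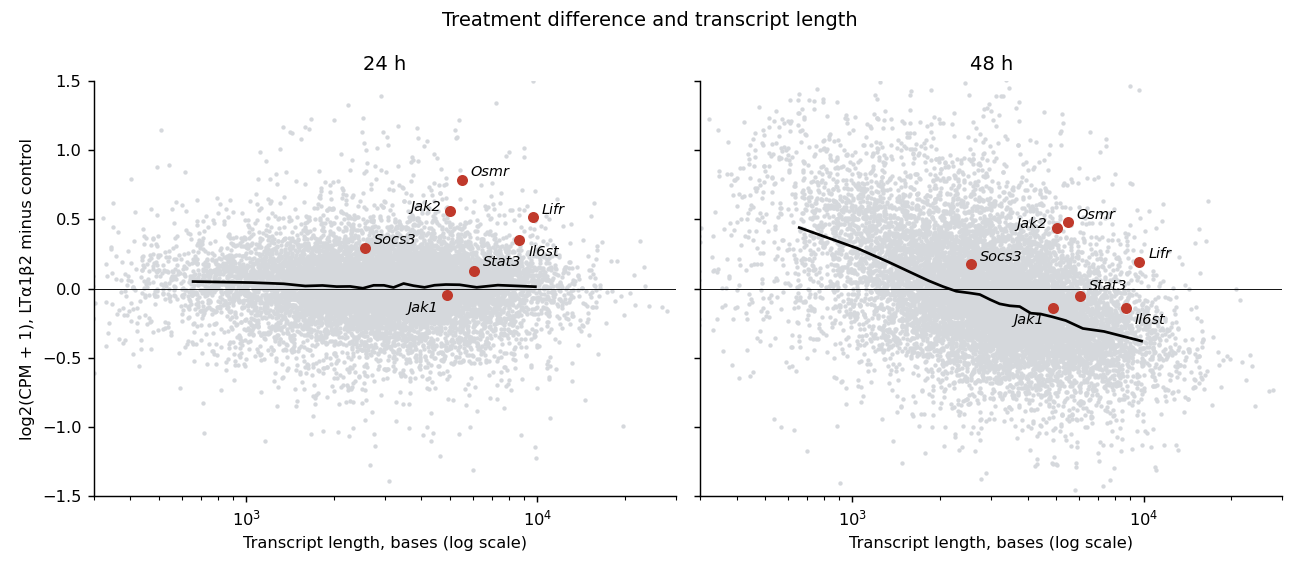
Difference in log2(CPM + 1) between LTα1β2 and control cells (vertical axis) against transcript length in bases (horizontal axis, log scale) at 24 h and 48 h. Grey points are all tested genes inside the plotted range, black lines the medians of 20 length bins, red points the 7 genes. At 48 h the line slopes down (rho = -0.47) and Osmr, Jak2 and Lifr lie above it. Lifr is at 0.20, where genes of like length have a median of -0.34. Length is that of the longest coding transcript, and the median one of Lifr has 3392 bases.

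The treatment ratio was smaller at 48 h than at 24 h for each of the 7 genes. The median log2 difference over all tested genes was also lower at 48 h, at -0.09 against 0.02 at 24 h. Here the intervals are 95% normal approximations on the log scale, again for counting error only. The ratio at 48 h divided by that at 24 h was 0.710 for Il6st (0.665 to 0.758), 0.801 for Lifr (0.745 to 0.861) and 0.807 for Osmr (0.744 to 0.876). For Jak2 it was 0.921 (0.820 to 1.04) and for Socs3 0.921 (0.803 to 1.06), with counting intervals that held 1. For Stat3 it was 0.884 (0.813 to 0.962) and for Jak1 0.937 (0.880 to 0.998). The difference between the times has no replicate and was not tested. With the length trend removed the log2 difference was at least as large at 48 h as at 24 h for Lifr (0.54 against 0.52), Jak2 (0.65 against 0.55), Stat3 (0.20 against 0.12) and Jak1 (0.06 against -0.06). It was smaller at 48 h for Il6st (0.18 against 0.35), Osmr (0.71 against 0.78) and Socs3 (0.19 against 0.28). With the median transcript as the length, Lifr turned to the second kind (0.33 against 0.50) and Stat3 stood at 0.11 at both times.

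In both treatments Osmr, Il6st, Socs3 and Stat3 were lower at 48 h than at 24 h beyond counting error, Osmr most of all. In LTα1β2 cells the ratio of 48 h to 24 h was 0.566 for Osmr (0.537 to 0.597), 0.661 for Il6st (0.630 to 0.694), 0.719 for Socs3 (0.651 to 0.792) and 0.769 for Stat3 (0.723 to 0.818). In control cells it was 0.702 for Osmr (0.659 to 0.746), 0.932 for Il6st (0.890 to 0.975), 0.780 for Socs3 (0.706 to 0.862) and 0.869 for Stat3 (0.820 to 0.922). Lifr was the only one of the 7 higher at 48 h in control cells, at 1.07 (1.02 to 1.13), and it stood at 0.858 (0.816 to 0.901) in LTα1β2 cells. Jak1 was at 0.909 (0.868 to 0.953) in LTα1β2 cells and 0.970 (0.930 to 1.01) in control cells. Jak2 was at 0.853 (0.789 to 0.922) in LTα1β2 cells and 0.926 (0.848 to 1.01) in control cells, so for both genes the interval in control cells held 1. By the 1.5-fold rule Osmr and Il6st were lower at 48 h in LTα1β2 cells, where 6.95% of all genes were as much lower and 5.58% as much higher. In control cells 0 of the 7 passed, where 0.995% of all genes were as much lower and 0.403% as much higher. With the length trend removed 0 of the 7 passed in LTα1β2 cells, with Osmr at a log2 difference of -0.53 and Il6st at -0.21, while Lifr, Jak1 and Jak2 turned to 0.19, 0.11 and 0.03. With the median transcript as the length, Il6st was at -0.47 and Lifr at -0.03, while Osmr, Jak1 and Jak2 were at -0.54, 0.15 and 0.06. These comparisons of time share libraries with those of treatment.

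Per length of transcript, Jak1 had the highest level of the 7 genes in each library and Jak2 the lowest. With the longest coding transcript as the length, Jak1 lay between 53.2 and 60.5 CPM per kilobase and Jak2 between 13.5 and 21.5 CPM per kilobase over the 4 libraries. Osmr lay between 22.2 and 54.8, Il6st between 25.9 and 39.2, Stat3 between 23.8 and 31.0, Socs3 between 19.4 and 30.5 and Lifr between 19.3 and 27.6 CPM per kilobase. In this order the range of each gene over the 4 libraries overlapped that of the next. The libraries differ in treatment and time, so the overlap does not measure a spread of replicates. Differences between neighbours were not tested. The order rests on the length taken. With the median transcript length Il6st came first, at 81.0 to 123 CPM per kilobase, and Lifr next, at 55.0 to 78.7, ahead of Jak1.

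The genes whose pattern over the 4 libraries was most like that of a member were found by the root mean square distance between centred log2(CPM + 1) values, for the 4 members that spanned at least 1.5-fold. For Osmr they were Sbno2 (distance 0.05), Timp1 (0.06) and Zfp458 (0.07). Sbno2 stood at 121 CPM in LTα1β2 cells and 71.4 CPM in control cells at 24 h, and at 74.8 CPM in LTα1β2 cells and 49.6 CPM in control cells at 48 h. For Il6st they were Lin54 (0.01), Rrp12 (0.03) and Ddias (0.03). For Jak2 they were Ust and Wdr73 (0.02 each) and Ninl (0.04), and for Socs3 Ccdc9b, Prrg2 and Dram1 (0.05 each). A distance over 4 libraries describes these libraries and says nothing of shared function.

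Around the 7 genes, 1 cytokine gene of the family rose. Of 11 listed 3 were measured, of which 1 rose, 0 fell and 2 did not pass. Of all tested genes 2.92% rose and 2.27% fell. Lif, the ligand of the LIF receptor, was at 19.2 CPM in LTα1β2 cells and 12.8 CPM in control cells at 24 h, and at 14.9 CPM in LTα1β2 cells and 9.47 CPM in control cells at 48 h. It rose by a log2 difference of 0.57 ± 0.19 (SE; limma adjusted p = 0.0476), a call lost with limma voom on the recovered reads, with median-of-ratios scaling, with 10 prior degrees of freedom, without a time term and without any 1 library other than LTα1β2 at 48 h. Clcf1, which encodes a cardiotrophin-like cytokine, had ratios of 0.898 at 24 h and 0.816 at 48 h and did not pass. Il6 stood at 6.34 CPM or less in every library, with ratios of 1.04 at 24 h and 1.41 at 48 h (0.984 to 2.02), and did not pass. Osm, the ligand of the oncostatin M receptor, is not analysed here.

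Of 6 other receptor chains of the family 3 were measured. In limma 0 of them passed, where 5.19% of all tested genes did, and 0 in limma voom, with 1 (Il6ra) at an unadjusted p under 0.05. Il6ra, the interleukin-6 receptor chain, was at 8.94 CPM in LTα1β2 cells and 5.69 CPM in control cells at 24 h, and at 8.28 CPM in LTα1β2 cells and 6.03 CPM in control cells at 48 h (limma adjusted p = 0.169). Il11ra1, the interleukin-11 receptor chain, had a ratio of 0.835 at 24 h (0.760 to 0.916) and 1.10 at 48 h (1.01 to 1.21). Cntfr, the ciliary neurotrophic factor receptor chain, was at 1.83 CPM or less in every library.

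Of 7 other JAK and STAT genes 6 were tested. In limma 0 of them passed, where 5.19% of all tested genes did, and 0 in limma voom. At an unadjusted p under 0.05 there were 0, and the median log2 differences were 0.11 at 24 h and -0.05 at 48 h. Stat2, a part of interferon signalling, had a ratio of 0.967 (0.923 to 1.01) at 24 h and 1.42 (1.34 to 1.497) at 48 h (limma adjusted p = 0.583). Stat6, which carries interleukin-4 signals, had ratios of 1.04 at 24 h and 1.05 at 48 h. Jak3 and Stat5b had ratios of 1.12 and 0.913 at 24 h and 1.08 and 0.895 at 48 h. Of 16 genes of SOCS, PIAS and phosphatase inhibitors 14 were tested. In limma 0 of them passed, beside the same 5.19% of all tested genes, and 0 in limma voom. Here too 0 had an unadjusted p under 0.05, and the medians were 0.06 at 24 h and -0.14 at 48 h. Pias3, an inhibitor of STAT3, had ratios of 0.816 (0.735 to 0.905) and 0.818 (0.722 to 0.927), and Pias1 of 0.977 and 0.721. Ptpn2, a phosphatase of JAKs and STATs, had ratios of 1.11 and 1.25, and Cish, a STAT5-induced inhibitor, of 0.805 and 0.592 at no more than 3.81 CPM.

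**Figure D4:**
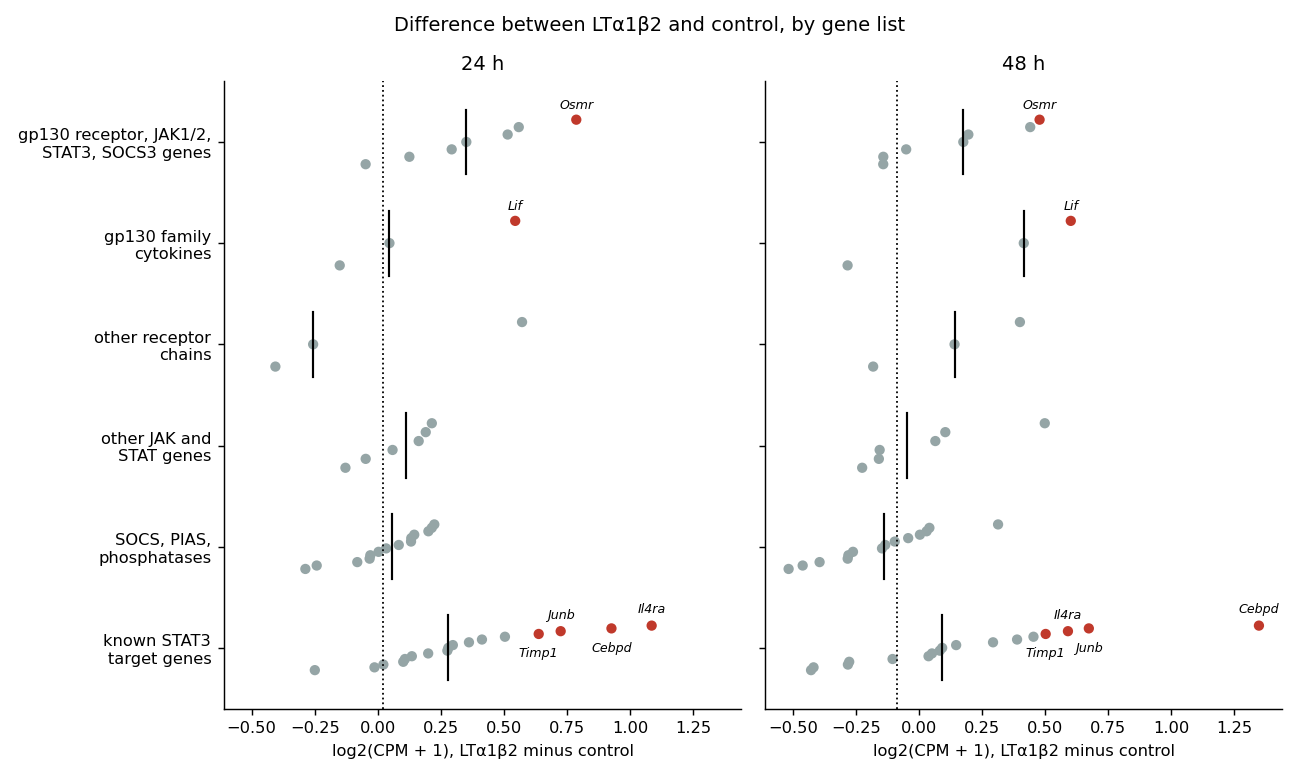
Difference in log2(CPM + 1) between LTα1β2 and control cells (horizontal axis) for each tested gene of 6 lists at 24 h and 48 h, 1 library per group. Red points with names passed the additive limma fit at an adjusted p of 0.05, black bars are list medians and the dotted line the median of all tested genes. Named genes are Osmr, Lif, Timp1, Junb, Cebpd and Il4ra.

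Of 20 genes known as STAT3 targets in various cells 17 were tested. 4 rose and 0 fell, where 2.92% of all tested genes rose and 2.27% fell, and the median log2 difference was 0.28 at 24 h and 0.09 at 48 h, beside 0.02 and -0.09 over all genes. Cebpd, a transcription factor gene of acute-phase responses, was at 110 CPM in LTα1β2 cells and 57.6 CPM in control cells at 24 h, and at 94.4 CPM in LTα1β2 cells and 36.5 CPM in control cells at 48 h (log2 difference 1.14 ± 0.17 SE, limma adjusted p = 8.49e-09). Junb, an AP-1 subunit gene, was at 219 CPM in LTα1β2 cells and 132 CPM in control cells at 24 h, and at 165 CPM in LTα1β2 cells and 103 CPM in control cells at 48 h (limma adjusted p = 0.00225). Il4ra, the interleukin-4 receptor chain, had ratios of 2.18 (1.90 to 2.50) and 1.53 (1.31 to 1.77). Timp1, an inhibitor of matrix metalloproteases, had ratios of 1.56 (1.49 to 1.64) and 1.42 (1.33 to 1.52). Several of these 4 genes are also known to answer to other signals, NF-κB among them, and the part of STAT3 in their levels was not tested. With the length trend removed Timp1 was at 0.37 and not called by the longest transcript (limma adjusted p = 0.0850), and at 0.40 and called by the median transcript (0.0409). With 10 prior degrees of freedom 1 of the 17 rose, where 39 of all 12160 genes did, and without a time term 0, where 20 did. With 1 library left out the log2 difference was 0.81 to 1.46 for Cebpd and 0.71 to 0.96 for Il4ra. It was 0.49 to 0.90 for Junb and 0.24 to 0.90 for Timp1. Their calls were lost without the control library at 48 h, and all but that of Cebpd without that at 24 h.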

How the data were processed

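Per the labels' protocols, RNA came from an RNAiso Plus extraction, and libraries were made with a strand-keeping kit and sequenced as read pairs. The authors deposited 1 table of CPM for 12208 genes, each column summing to 1000000, and edgeR 3.30.0 is among the tools in the submitters' processing notes. The name of the aligner, counter, build or annotation was not given in the sources used here. The table holds no zeros, and its lowest values are 9 to 12 reads, so genes silent in a library are not analysed here. In each column 100% of the values were whole multiples of 1 step within 0.01 of a read, which gave the reads behind the counting intervals (Clopper-Pearson, 95%, counting error only).

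Symbols and lengths (longest coding transcript of the basic set) came from GENCODE M21, where 12205 identifiers were found without version and 11716 with it. The fit was limma 3.58.1 (R 4.3.3) on log2(CPM + 1), additive in treatment and time, trended, two-sided, Benjamini-Hochberg 0.05, over the 12160 genes at a mean CPM of 1 or more, with 1 residual degree of freedom. A fold on this scale understates the change of low genes. Nothing says that libraries came from separate experiments. Length trends were removed per library by loess (span 0.3). The members, lists and tests were chosen with earlier results of these data known. Named genes were the 7, every measured cytokine and receptor chain, and up to 4 genes of each other pathway list with the largest mean difference. A few genes of the pathway lists are not reported here and stand in no list count.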

Additional observations from a re-analysis of the deposited data

Results flagged for a closer look

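Among the genes named by rule, for Il6st and Il11ra1 the ratio of LTα1β2 to control cells lay on opposite sides of 1 at the 2 times, with counting intervals that left out 1 at each. Il6st had a ratio of 0.906 at 48 h and 1.28 at 24 h. Il11ra1 had a ratio of 1.10 at 48 h and 0.835 at 24 h. Genes of the lists outside that rule showed the pattern too, such as Ptpn1 with 0.831 at 48 h and 1.15 at 24 h. With 1 library per group, the difference between the times was not tested. Both named genes lay near control in the additive fit, with limma adjusted p-values of 0.848 for Il6st and 0.924 for Il11ra1.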

How the results depend on the processing

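The number of genes called across both times, 631 in all and 1 of the 7, turned on the scaling and on how spread was estimated. It was 179 with median-of-ratios scaling, 64 with 10 prior degrees of freedom (0 of the 7) and 31 without a time term (0 of the 7). With infinite prior degrees of freedom it was 1783 with the length trend removed (4 of the 7) and 1268 with median-of-ratios scaling (3 of the 7). With the length trend removed and the prior estimated, 3 of the 7 and 568 genes in all were called, and 3 and 698 with the median transcript length. With 1 library left out, which left no time term, it was 22 to 4949 genes and 0 to 5 of the 7. The upper ends of these ranges came from different fits. That of all genes came without the LTα1β2 library at 24 h, and that of the 7 without the LTα1β2 library at 48 h. The lone library of an arm is in such fits assumed to vary like the other arm, and the cause of these moves was not tested. Treatment and control were compared within each time by the time term, and no further pairing was possible.

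At 24 h 344 genes passed 1.5-fold, against 64 at 2-fold (0 of the 7), 552 with a pseudocount of 0.25, 139 with 5 and 226 at a mean of at least 5 CPM. At 48 h 1663 passed, against 313 at 2-fold and 1003 with a pseudocount of 5, and with the length trend removed 2 of the 7 passed under either length. For time in LTα1β2 cells 1523 passed, 2 of the 7 among them. There were 179 at 2-fold (0 of the 7), 773 with a pseudocount of 5, 898 with the length trend removed and 924 with the median transcript (0 of the 7 each), and 1 of the 7 passed with median-of-ratios scaling. That scaling moved the median log2 difference of all genes there from -0.13 to -0.00. For time in control cells 170 passed, against 4 at 2-fold, 400 with a pseudocount of 0.25, 12 with 5 and 53 at a mean of at least 5 CPM.

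In the additive fit Jak1 turned to 0.016 with the length trend removed by the median transcript. Leaving out 1 library turned the sign of several genes that were not called, with log2 ranges of -0.19 to 0.40 for Il6st, -0.15 to 0.23 for Stat3, -0.00056 to 0.47 for Socs3, -0.36 to 0.25 for Il11ra1, -0.20 to 0.46 for Jak3, -0.56 to 0.13 for Clcf1, -0.34 to 0.054 for Stat5b and -0.0034 to 0.13 for Stat6. Of the limma values of named genes under an alternative, 356 kept direction and side of the threshold, 26 newly passed it, 26 no longer did and 15 changed sign. The voom fit, the infinite priors and the median transcript length were chosen after seeing the data. The planned edgeR and DESeq2 tests were not run, since the deposited values are CPM and the lowest listed gene has 9 to 12 reads, so the step of 1 read was inferred and could not be read off directly. Depth limits Cntfr and Cish most, with 14 to 25 and 19 to 61 reads, and their counting intervals held 1 at both times.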
